A study of Mus musculus with 2 samples.

Results

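The genes described are 47 listed genes of protein folding, collagen modification and export in the endoplasmic reticulum (ER). A gene counted as measured when at least 1 probe set of the array named it and no other gene. This gave 45 genes on 89 probe sets, out of 12393 genes and 20380 single-gene probe sets in all. Fkbp10 and Sec61g, the remaining listed genes, had no such probe set and were not analysed here. Lepre1 and Ero1l of the list carry the current symbols P3h1 and Ero1a. The 45 fall into 16 chaperones and folding enzymes, 9 collagen-processing genes, 11 secretory transport genes, and 9 stress sensors and genes of ER-associated degradation (ERAD).

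The samples were cultures of osteoblasts from the skull vault (calvaria) of C57Bl/6 mice aged 4 to 5 days. One array held cells labelled Col1-Dlk1, from mice carrying a transgene that overexpresses Dlk1, and the other held cells labelled wild type, from littermates without it. On each array 3 cultures were pooled, so there was 1 array per genotype, no measure of spread between cultures, and no test. The transgenic cells were sorted to enrich Dlk1-positive cells. The sources used here do not say whether wild-type cells were sorted too, or which promoter drives the transgene beyond its name.

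Secreted and membrane proteins enter the ER through the SEC61 channel, are folded there by chaperones and disulfide isomerases, and leave in COPII-coated vesicles. Osteoblasts send out large amounts of type I collagen, whose chains need dedicated hydroxylases and a dedicated chaperone in the ER before they can form a stable triple helix. When unfolded protein builds up, the sensors encoded by Ern1, Atf6 and Eif2ak3 start a programme known as the unfolded protein response. As a whole this programme raises the output of chaperone and ERAD genes.

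Values are intensities on the linear scale of the deposited table. Differences are log2(intensity + 11.0) on the Col1-Dlk1-labelled array minus the same quantity on the wild-type-labelled array, and a fold is on that same scale, which understates differences of dim genes. Where a gene had several probe sets, their log2 values were averaged and turned back into an intensity. A gene was level-passing when its higher intensity reached 42.8, the median of all values, and it was called if in addition its values lay 2-fold or more apart. A pair of level-passing probe sets of the same gene differed in this measure by a median of 0.30 log2 units over 6062 pairs, and by 0.23 over the 54 pairs within the members.

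Dlk1 itself went against its label, with 26.5 on the Col1-Dlk1-labelled array and 306 on the wild-type-labelled array, so every direction is between arrays as labelled. Of 11 measured osteoblast markers, Col1a1 (1772 and 1462), Col1a2 (6261 and 7071) and Sparc (7535 and 4818) were within 2-fold, Postn and Omd were lower on the Col1-Dlk1-labelled array, and 6, among them Alpl, Ibsp, Dmp1 and Sp7, did not reach the level threshold on either array. All 23 measured macrophage markers were higher on the Col1-Dlk1-labelled array, at 91.9 to 7267 against 1.16 to 43.3, with summed intensities of 26469 and 359 and a median difference of 5.07. All 11 measured cell cycle markers were lower there, with sums of 1891 and 7141. Among 8 measured fibroblast markers, Pdgfra (99.0 and 375) and Cd34 (21.2 and 162) were lower there and Fap (55.6 and 17.3) higher. Another 4 were within 2-fold. Of 7 measured osteoclast markers, Acp5 (50.6 and 4.45) and Ctsk (631 and 266) were higher there, and 4 did not reach the level threshold. No endothelial marker of the 7 measured was called, and 6 did not reach it. None of the 6 measured plasma cell and B cell markers, another secretory lineage, was called, and 5 did not reach the level threshold. All 6 had a difference above 0, with a median of 0.66 that rests mostly on the 5 dim ones. The level-passing one, Sdc1, read 254 and 194 (0.37). In pooled RNA, fewer cells of a type and less RNA per cell cannot be told apart. The part of these cells in the differences of ER genes was not tested.

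Most of the ER genes reached the level threshold and lay within 2-fold between the arrays. Of the 45, 42 reached the level threshold, compared with 54.8% of all genes. Plod2, Ero1a, Dnajb9 and Plod3 were at least 2-fold higher on the Col1-Dlk1-labelled array, that is 4 of 42, and none was at least 2-fold lower. Among all 6795 level-passing genes, 9.39% were higher and 7.11% lower by the same rule, so the count of higher members lay near the background. The median difference of the 45 was 0.15, against 0.01 over all genes. By the looser rule of 1.5-fold, 10 members were higher and 3 lower, where the background was 19.2% and 17.0%. Taken by probe set, 10 of 78 level-passing probe sets of the members were at least 2-fold higher and 1 was lower, against 9.45% and 8.18% of all level-passing single-gene probe sets.

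**Figure D1:**
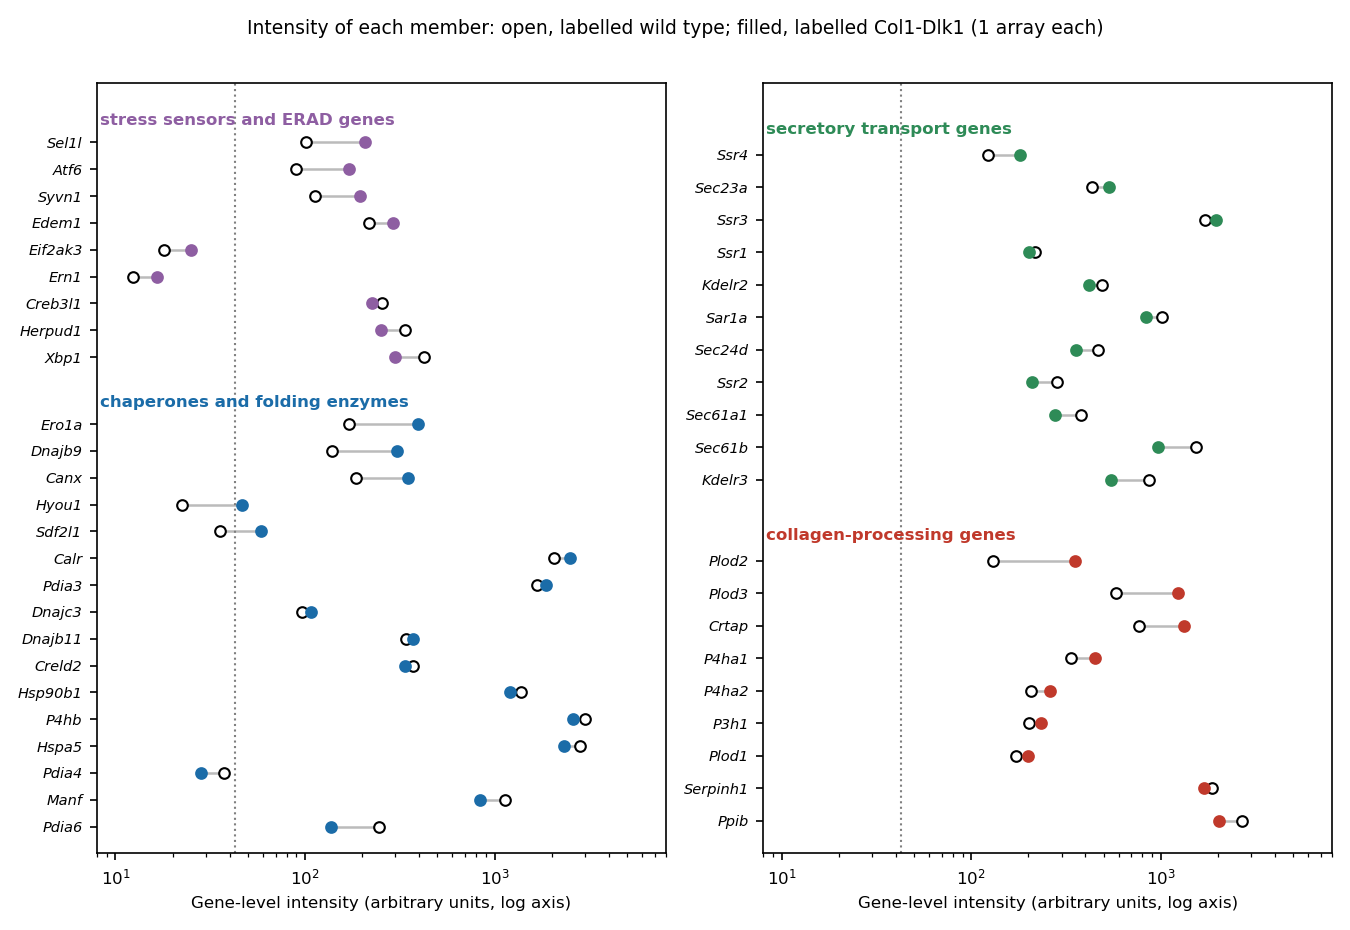
Gene-level intensity (log axis, arbitrary units) of the 45 measured members on the wild-type-labelled array (open circles) and the Col1-Dlk1-labelled array (filled circles), 1 array each, by group. The dotted line is the level threshold of 42.8. Most circles of a gene lie close together, the widest gaps among collagen-processing genes are those of Plod2 and Plod3, and Ern1, Eif2ak3 and Pdia4 lie left of the line on both arrays.

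The medians of the groups ran from below to above 0. Collagen-processing genes had a median difference of 0.33 and stress sensors and ERAD genes one of 0.32, while chaperones and folding enzymes had 0.13 and secretory transport genes -0.28. The collagen-processing median lay 0.61 log2 units above the secretory transport median, a gap between single arrays with no replicate check. In the wider lists of related genes described below, the collagen-processing and secretory medians lay close together, at 0.11 and 0.09. Of the 11 secretory transport genes, 8 were lower on the Col1-Dlk1-labelled array, whereas 7 of the 9 collagen-processing genes were higher. Among all level-passing genes 48.8% had a difference below 0.

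**Figure D2:**
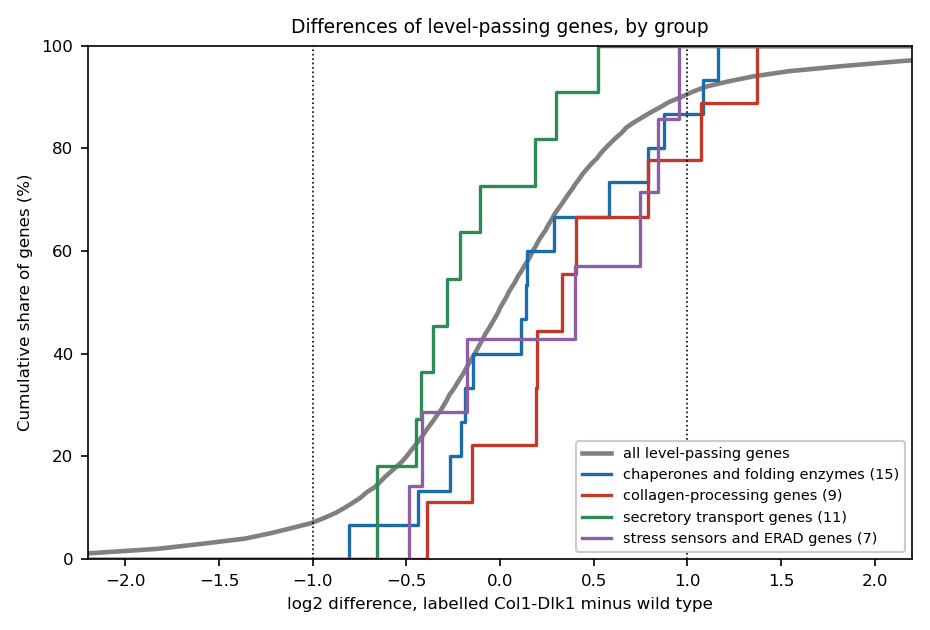
Cumulative share of genes (%) against the log2 difference for the level-passing members of each group, with their number in the key, and for all 6795 level-passing genes (grey). Dotted lines mark a 2-fold difference. Over most of its range the secretory transport curve lies left of the grey one, with a median of -0.28, and over most of its range the collagen-processing curve lies right of it, with a median of 0.33.

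The main chaperones of the ER lumen differed little between the arrays. Hspa5, which encodes the ER Hsp70 protein BiP, read 2330 on the Col1-Dlk1-labelled array and 2809 on the wild-type-labelled array, a difference of -0.27. Its probe sets gave 4372 against 6467 and 1239 against 1216, so they did not share a direction. Hsp90b1, the Hsp90 of the ER, read 1206 and 1377 (-0.19), again with 1 probe set at -0.41 and the other at 0.03. The calcium-binding lectin chaperone gene Calr read 2505 and 2049 (0.29), with all 3 probe sets above 0. Each of these lay well within 2-fold.

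Canx, the membrane-bound counterpart of Calr, stood further apart. Its gene-level intensities were 350 and 186, a difference of 0.87, just under the 2-fold rule. Of its probe sets, the dimmer ones read 184 against 84.6 and 211 against 95.2, and the brightest read 1077 against 743, all higher on the Col1-Dlk1-labelled array. Without probe sets of the _s_at and _x_at kind, which can match several transcripts, Canx passed the rule at 1.05.

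The J-domain cochaperones, which stimulate BiP, were led by Dnajb9. Dnajb9 (Entrez Gene 27362), which also feeds ERAD, read 304 on the Col1-Dlk1-labelled array and 138 on the wild-type-labelled array, a difference of 1.08 or 2.12-fold on 1 probe set. With a pseudocount at the median of all values its difference was 0.94, so it was no longer called. Dnajb11 read 371 and 343 (0.11) and Dnajc3 read 107 and 96.0 (0.14). The 5 probe sets of Dnajc3 ran from -0.44 to 0.52, and the probe set with the highest level was the one at -0.44.

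Smaller or accessory folding factors of the lumen lay on both sides of 0. Hyou1, the exchange factor and chaperone of BiP, read 46.8 and 22.4 (0.79), and Sdf2l1, which partners with J-domain proteins, read 58.5 and 35.5 (0.58). Both were dim on the wild-type-labelled array, below the level threshold. The difference of Hyou1 leaned on a dim probe set of 28.0 against 1.65 and depended on the settings. It was 1.45, past the rule, with a pseudocount of 1, but 0.40 with a pseudocount at the median of all values and 0.49 with the probe set of highest level. The secreted stress proteins Manf, at 838 and 1139 (-0.44), and Creld2, at 336 and 372 (-0.14), lay the other way.

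Among the genes of disulfide bond formation, the oxidase gene was higher and 1 isomerase gene, Pdia6, lay furthest to the other side. Ero1a (Entrez Gene 50527), which reoxidises the isomerases, read 395 on the Col1-Dlk1-labelled array and 170 on the wild-type-labelled array, a difference of 1.17 or 2.24-fold. All 3 of its probe sets were higher, at 508 against 181, 353 against 222 and 343 against 121. The isomerase gene Pdia6 read 137 and 247 (-0.81). Its bright probe set read 1042 against 2317 (-1.14) and its dim one 9.78 against 17.7, so by the probe set with the highest level Pdia6 was called lower. The other isomerases were close to even, with P4hb at 2602 and 3012 (-0.21), Pdia3, the partner of calreticulin and calnexin, at 1864 and 1684 (0.15), and Pdia4, at 28.1 and 37.2, below the level threshold as a gene. The brighter Pdia4 probe set did reach it, at 52.1 and 71.2 (-0.38).

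Over all 16 chaperones and folding enzymes, 2 were called higher, none lower, 13 lay within 2-fold and 1 was below the level threshold. With 9.39% higher and 7.11% lower among all level-passing genes, the count of higher genes was near the background. Differences ran from -0.81 to 1.17. The group median of 0.13 turned to -0.02 with the stricter level threshold of 162 and also with the probe set of highest level, so the group had no settled direction.

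**Figure D3:**
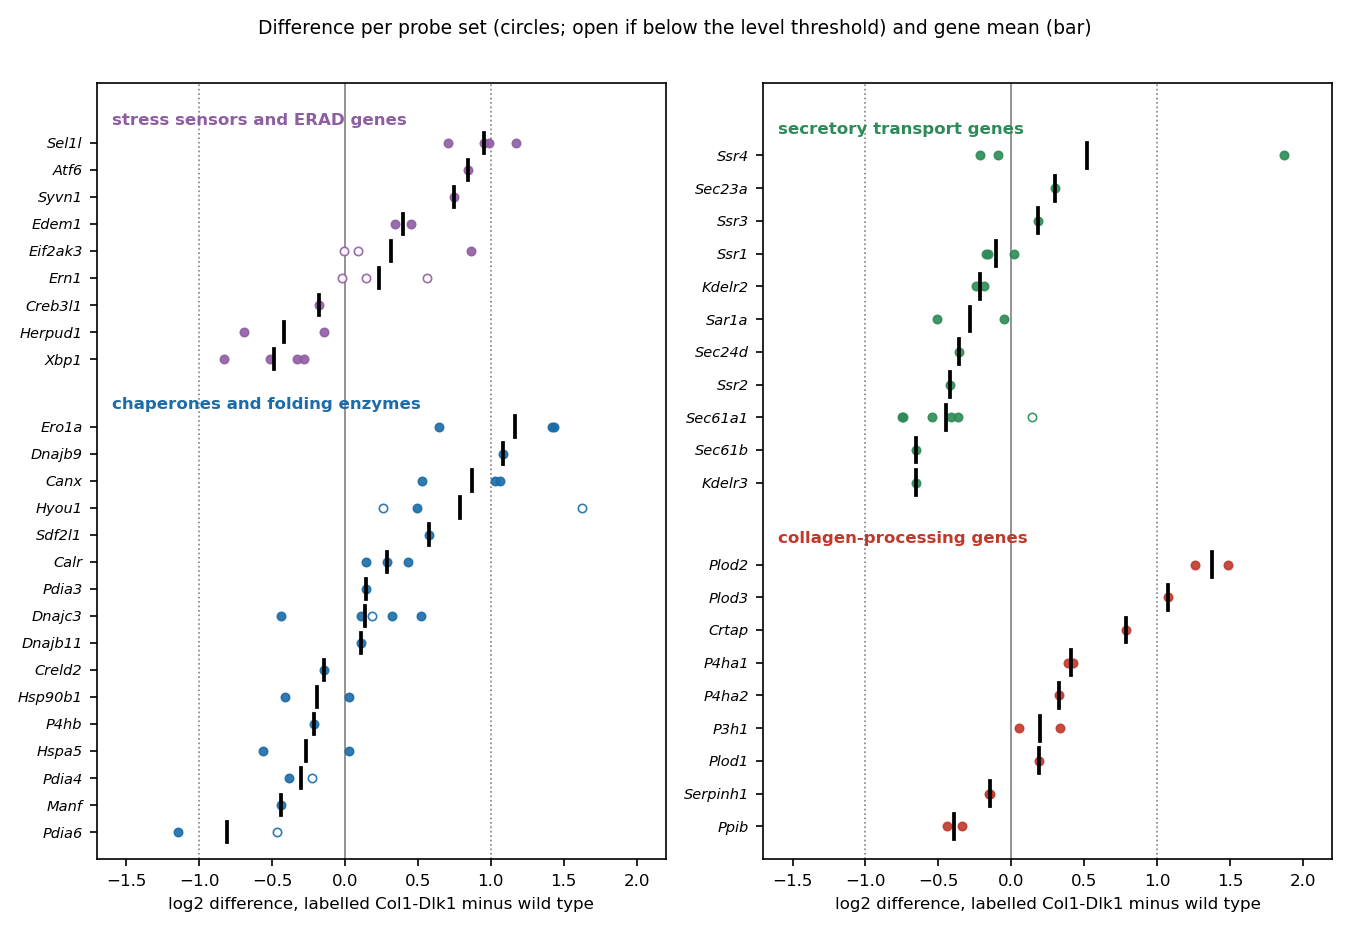
Log2 difference (labelled Col1-Dlk1 minus labelled wild type) of each probe set (circles, open where below the level threshold on both arrays) and the gene mean (black bars) for the 45 measured members, by group. Dotted lines mark a 2-fold difference. Ero1a and Plod2 have every probe set to the right of 0 and Xbp1 every one to the left, while 1 probe set of Ssr4 lies far from the others.

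Because many ER chaperone genes are known to share stress response elements before their start, promoter windows were searched for the letters of these elements. The windows run from 250 bases before to 50 after the annotated gene start, from RefSeq on GRCm38.p6, and 37 of the 45 genes matched an entry. Atf6, Creb3l1, Hyou1, Kdelr2, Manf, Plod2, Sec61a1 and Ssr2 did not. The motifs, searched on both strands, were the ER stress element ERSE (CCAAT, any 9 bases, CCACG), ERSE-II (ATTGG, any base, CCACG) and the unfolded protein response element UPRE (TGACGTGG), all of which hold CCACG on one strand. There were 14 matches in 13 genes, none of which held more than 1 kind of motif. The ERSE was present in 8 of the 37 members, against 0.137% of 27025 genes with a window. By group it was found in 7 of 14 chaperone and folding genes, 1 of 7 stress sensor and ERAD genes, 0 of 8 collagen-processing genes and 0 of 8 secretory transport genes. The motifs were searched because chaperone genes are known to share them, so their share among the members is not an independent result. A match is a description of the letters and not evidence of binding.

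The 9 ERSE matches are shown because the ERSE is the longest of the 3 motifs and was found in 7 chaperone and folding genes and the ERAD gene Syvn1. Each is read on the gene's strand with 15 bases on either side, and capitals mark the match.
Hspa5, chr2:34772010-34772058, plus strand, forward orientation: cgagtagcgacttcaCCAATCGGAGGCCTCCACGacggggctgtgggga
Hsp90b1, chr10:86705623-86705671, minus strand, forward orientation: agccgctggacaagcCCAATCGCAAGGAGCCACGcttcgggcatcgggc
Hsp90b1, chr10:86705518-86705566, minus strand, reverse orientation: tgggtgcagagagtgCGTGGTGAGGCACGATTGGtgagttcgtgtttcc
Calr, chr8:84847060-84847108, minus strand, reverse orientation: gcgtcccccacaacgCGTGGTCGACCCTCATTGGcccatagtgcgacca
Canx, chr11:50325785-50325833, minus strand, forward orientation: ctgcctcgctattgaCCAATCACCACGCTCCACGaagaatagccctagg
Pdia6, chr12:17266476-17266524, plus strand, forward orientation: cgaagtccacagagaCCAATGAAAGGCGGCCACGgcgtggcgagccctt
Dnajc3, chr14:118937812-118937860, plus strand, forward orientation: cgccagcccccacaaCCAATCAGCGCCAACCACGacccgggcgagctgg
Creld2, chr15:88819505-88819553, plus strand, reverse orientation: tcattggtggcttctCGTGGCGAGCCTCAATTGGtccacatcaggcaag
Syvn1, chr19:6046517-6046565, plus strand, forward orientation: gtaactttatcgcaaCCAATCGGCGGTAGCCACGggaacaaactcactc

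The members that hold an ERSE did not share a direction between the arrays. Of the 8, 4 had a difference below 0 and 4 above, from -0.81 for Pdia6 to 0.87 for Canx. Of the called genes, Ero1a, Dnajb9 and Plod3 have a window and none of these letters was found in it, which says nothing about the factors that act there.

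**Figure D4:**
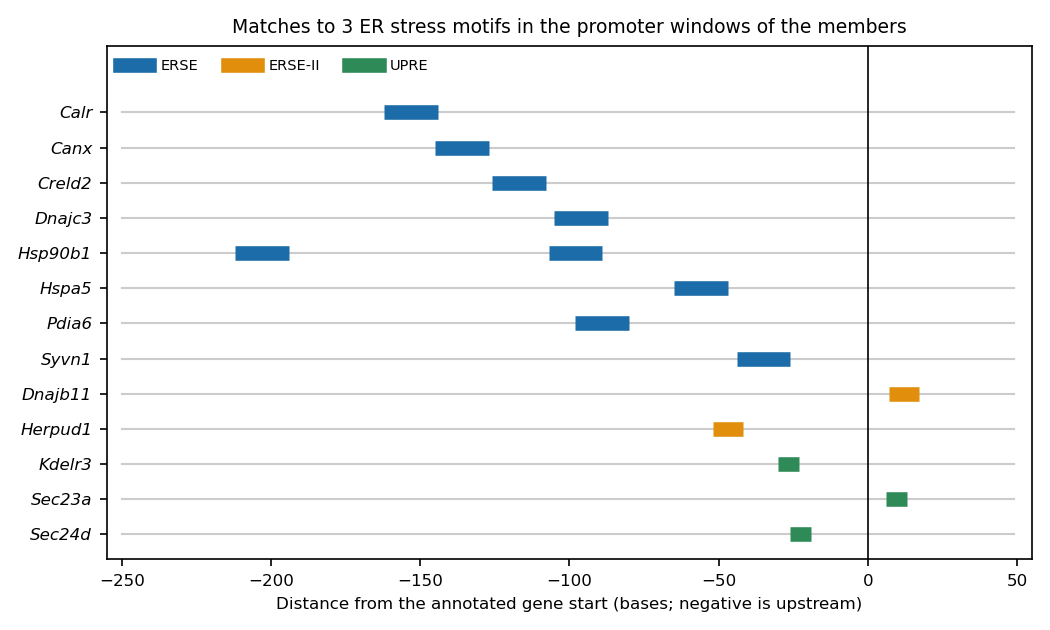
Position of each motif match in the windows of the 13 members that hold one, as distance in bases from the annotated gene start (0; negative is upstream). The ERSE matches (blue) all lie upstream of the start, between -212 and -26, and the UPRE matches (green) of Kdelr3, Sec23a and Sec24d lie within 30 bases of it.

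Among the collagen-processing genes the lysyl hydroxylase genes Plod2 and Plod3 stood highest, while the third of the family, Plod1, did not. These enzymes hydroxylate lysines of collagen, which later carry sugars or form crosslinks. Plod2 (Entrez Gene 26432), the one known for the lysines of the collagen telopeptides, read 353 on the Col1-Dlk1-labelled array and 130 on the wild-type-labelled array, a difference of 1.37 or 2.59-fold. Its probe sets read 447 against 180 and 279 against 92.6. Plod3 (Entrez Gene 26433), which also transfers sugars to hydroxylysine, read 1235 and 581, a difference of 1.07 or 2.10-fold on 1 probe set. Plod1, which acts on lysines of the helix, read 198 and 172 (0.19). The difference of Plod2 thus exceeded that of Plod1 by 1.18 log2 units. The macrophage marker list, at a median difference of 5.07, lay in the same direction as Plod2 and Plod3, as it did for Ero1a and Dnajb9, and its part was not tested.

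The prolyl 4-hydroxylase, which makes the hydroxyproline that stabilises the triple helix, gave small differences. Its catalytic subunit genes P4ha1, at 450 and 336 (0.41), and P4ha2, at 261 and 206 (0.33), were on the higher side, and its beta subunit P4hb, described above, on the lower. The complex that hydroxylates single prolines at another position was spread more widely. Crtap, its scaffold, read 1332 and 766 (0.79), P3h1, its enzyme, read 233 and 202 (0.20), and Ppib, its prolyl isomerase cyclophilin B, read 2037 and 2673 (-0.39, with probe sets at -0.44 and -0.34). Serpinh1, the collagen-specific chaperone, read 1688 and 1871 (-0.15) and its probe sets both gave -0.15.

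Over the 9 collagen-processing genes, all were level-passing, 2 were called higher and none lower, beside 9.39% and 7.11% of all level-passing genes. Their median was 0.33, with values of 0.27 to 0.34 under the other scalings, pseudocounts, level thresholds and ways of combining probe sets. Counting P4hb with this group and Ppib with the chaperones left the median at 0.33. That swap could not move it, since P4hb (-0.21) and Ppib (-0.39) both lay below the median.

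The secretory transport genes were the group with the most members on the lower side, and none of them was called. The SEC61 channel was lower in both measured subunits. Sec61a1, the pore, read 276 and 380 (-0.45), with 5 of its 6 probe sets below 0 and the exception below the level threshold. Sec61b, a small subunit, read 966 on the Col1-Dlk1-labelled array and 1528 on the wild-type-labelled array (-0.66, or 1.58-fold). Both lay under the 2-fold rule.

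The translocon-associated TRAP complex, which assists entry of some chains, did not share a direction. Ssr2 read 210 and 284 (-0.42), Ssr1 read 201 and 218 (-0.11) and Ssr3 read 1944 and 1708 (0.19). Ssr4 had a gene-level difference of 0.52, at 181 and 123, that rested on 1 probe set. That probe set read 79.3 against 13.7, while the others read 1676 against 1787 and 35.7 against 43.2. With the probe set of highest level the difference of Ssr4 was -0.09, and without _s_at and _x_at probe sets it was 1.87, so its direction depends on the probe set.

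Vesicle coat and retrieval genes were mostly lower by small amounts. Sec24d, a COPII cargo adaptor needed for collagen export in skull development, read 359 and 464 (-0.36), and Sar1a, the GTPase that starts the coat, read 837 and 1020 (-0.28). Sec23a, the inner coat partner of Sec24 proteins, lay the other way at 534 and 432 (0.30). Of the receptors that return KDEL-tailed chaperones from the Golgi, Kdelr3 read 544 and 864 (-0.66) and Kdelr2 read 419 and 488 (-0.21).

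The UPRE was found in 3 of the 8 secretory transport windows, in 0 of the other 29 member windows and in 0.714% of all genes with a window. The matches are printed because they belong to coat and retrieval genes, where the longer ERSE was not found. Capitals mark the match on the gene's strand, and for Sec23a, whose match lies after the start, the motif alone is given.
Kdelr3, chr15:79516363-79516400, plus strand, reverse orientation: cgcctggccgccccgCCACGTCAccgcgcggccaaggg
Sec24d, chr3:123267455-123267492, plus strand, forward orientation: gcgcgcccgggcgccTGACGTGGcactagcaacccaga
Sec23a, chr12:59012004-59012011, minus strand, forward orientation: TGACGTGG

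These genes, which share the motif, did not share a direction, with Kdelr3 and Sec24d lower and Sec23a higher on the Col1-Dlk1-labelled array. Across the 11 secretory transport genes differences ran from -0.66 to 0.52. The cell cycle markers, at a median of -2.25, lay in the same direction, and their part was not tested. The group median of -0.28 became -0.34 under median centring, -0.28 under quantile normalization and -0.21 under loess scaling. These scalings moved the median over all genes only from 0.01 to -0.05, -0.005 and 0.02. A change of sign was therefore hardly possible, and its absence does not stand in for replicate arrays.

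Sensors and transcription factors of the unfolded protein response were dim or differed in opposite directions. Atf6, a membrane-held transcription factor released by proteolysis, read 170 and 89.9 (0.84). Xbp1, whose mRNA is spliced by the Ern1 product to give an active factor, read 299 on the Col1-Dlk1-labelled array and 423 on the wild-type-labelled array (-0.49). All 4 Xbp1 probe sets were lower, from -0.83 to -0.28. These intensities do not separate spliced from unspliced Xbp1. Creb3l1, a related membrane-held factor known for driving collagen genes in osteoblasts, read 225 and 256 (-0.18). Ern1, at 16.5 and 12.4, and Eif2ak3, at 25.1 and 18.0, did not reach the level threshold as genes, although 1 of the 3 Eif2ak3 probe sets did, at 160 and 82.7 (0.87).

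The ERAD genes, which carry misfolded proteins back to the cytosol for destruction, were on the higher side in 3 of 4 cases. Sel1l, the adaptor of the ubiquitin ligase complex, read 207 and 101 (0.96) and its 4 probe sets gave 0.70 to 1.17. It lay just under the rule and passed it at 1.05 with a pseudocount of 1. Syvn1, the ligase itself, read 196 and 113 (0.75), and Edem1, which marks misfolded glycoproteins, read 291 and 218 (0.40). Herpud1, an early stress target that binds the same complex, read 251 and 339 (-0.42), with probe sets of 204 against 336 and 309 against 342. Thus the ligase and its adaptor lay on one side and Herpud1 on the other, all within 2-fold.

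Herpud1 and the cochaperone gene Dnajb11 are the members that hold an ERSE-II, which occurs in 0.0444% of all genes with a window. They are shown for comparison with the ERSE, with capitals marking the match. For Dnajb11, whose match lies after the start, the motif alone is given.
Herpud1, chr8:94386362-94386402, plus strand, forward orientation: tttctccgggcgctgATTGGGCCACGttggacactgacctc
Dnajb11, chr16:22857852-22857862, plus strand, forward orientation: ATTGGCCCACG

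Other genes of the same pathways gave few calls. Of 98 related ER and secretory genes, 94 were level-passing, 4 were called higher and none was called lower, fewer in share than the background of 9.39% and 7.11%. Their median difference was 0.15. The 4 were Ppp1r15a, a phosphatase subunit that ends the translation block of the stress response, at 660 and 250 (1.36), Wfs1, an ER membrane protein, at 244 and 101 (1.19), Bbc3, a cell death activator, at 93.9 and 36.3 (1.15), and Mogs, the glucosidase that starts trimming of N-glycans, at 199 and 93.5 (1.01). Next among level-passing genes was Sec11c, a signal peptidase subunit, at 181 and 91.5 (0.90). It was followed by Mcfd2, a partner of the cargo receptor Lman1, at 1526 and 855 (0.83). Tram2 had a difference of larger size than any of these, at 3.54 and 33.2 (-1.61), but did not reach the level threshold. Among the 98 related genes, 27 folding and glycosylation genes had a median of 0.23. The 11 related collagen-processing genes had one of 0.11, with none called and 5 below 0, beside 0.33 for the collagen-processing members. The 21 stress and ERAD genes had one of 0.18. The 39 related secretory genes had a median of 0.09 and 14 of them lay below 0, beside -0.28 and 8 of 11 for the secretory transport members. The median of the wider secretory list thus lay on the other side of 0 from that of the members.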

How the data were processed

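RNA of pooled calvarial osteoblast cultures was measured on Affymetrix mouse arrays, 1 per genotype, so no test was made and precision is limited by that number. The authors' deposited table holds linear intensities, 1 value per probe set, and the submitters' processing notes name Affymetrix Expression Console 1.1.1 with no further role. The sources used here do not give the algorithm or the scaling target. Both arrays had a mean intensity of 149.98 after trimming 2% of values at each end, and medians of 43.8 and 41.5. Probe sets were joined to GEO's platform annotation and to current RefSeq symbols. The pseudocount is the 25th percentile of all values and the level threshold their median. All 47 members are named or counted. Of the related genes, those called and the 6 level-passing ones with the largest difference are named. Tram2, below the level threshold, is named for its larger difference. The fibroblast and osteoclast markers named are those called, and of other marker lists up to 3 of the highest level are named. The other named osteoblast markers were chosen after their values were seen. Members, gene lists and groups were chosen with earlier results of these data known. The gene-level calls were tested on simulated data with planted differences well past the 2-fold rule. The promoter search was not part of that test. Protein sequences were not used here. Alternatives covered pseudocount, level threshold, scaling, fold and probe sets, 1 of them added after seeing the data. Python 3.11.15, numpy 2.4.6, pandas 2.3.3, statsmodels 0.14.6 and matplotlib 3.10.9 were used.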

Additional observations from a re-analysis of the deposited data

How the results depend on the processing

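No paired analysis was possible because only 1 array was made per genotype, which also means that none could be left out. The count of members at least 2-fold higher was 4 and ran from 3 to 6 under the other pseudocounts, level thresholds, scalings and choices of probe set. The count at least 2-fold lower was 0 and became 1, Pdia6, with the probe set of highest level and, in the alternative added after seeing the data, without probe sets below the level threshold. With a 1.5-fold rule the counts were 10 and 3. Over all settings the median difference ran from 0.09 to 0.19 for all members, -0.02 to 0.14 for chaperones and folding enzymes, 0.27 to 0.34 for collagen-processing genes, -0.34 to -0.21 for secretory transport genes and 0.24 to 0.57 for stress sensors and ERAD genes. Of 359 recomputed differences of single members, 11 moved by more than 0.30, the median gap between probe sets of a gene. These were differences of Hyou1, Canx, Dnajc3, Pdia6, Sec61a1, Ssr4 and Eif2ak3. No called difference changed sign.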

Other observations

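Sec61g, the small subunit of the SEC61 channel, was named by 1 probe set together with other genes, which kept it out of the comparison. That probe set read 1363 on the Col1-Dlk1-labelled array and 1469 on the wild-type-labelled array, a log2 difference of -0.11. A second probe set for Sec61b that also names another gene read 2.31 and 17.4, both below the level threshold.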
